A study of Homo sapiens with 2 samples.

Results

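The 9 microRNA stems examined here are known from other tissues than airway epithelium, and were measured in BEAS-2B cells, a wild-type human line of immortalised bronchial epithelium. They are hsa-miR-143, hsa-miR-145, hsa-miR-199a, hsa-miR-199b and hsa-miR-214 of mesenchymal cells, hsa-miR-126 of endothelium, hsa-miR-1 and hsa-miR-133a of striated muscle, and hsa-miR-483 of the imprinted IGF2 gene. The prefix hsa-, for human, is left out below. Members were all rows of the deposited count table whose name was exactly 1 of these 9 stems with an optional copy number and arm, which gave 17 of 2904 entries and 18 mature names. The manganese group was 1 library of cells collected 24 h after manganese, and its dose is not stated in the labels. The control group was 1 library of cells collected 24 h after vehicle. Cells of both groups were kept in DMEM:F12 medium that held fetal bovine serum. With 1 library in each of the 2 groups there is no replicate check, no p-value is given, and each comparison is of these 2 libraries rather than of the conditions.

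MicroRNAs are cut from hairpins, and each hairpin can release a mature strand from its 5p and its 3p arm. Bases 2 to 8 of the mature strand, the seed, pair with target mRNAs. Hairpins that lie on 1 primary transcript are made together, so partners such as miR-143 and miR-145 are often found side by side in the same cells. In lung, miR-143, miR-145, miR-199a and miR-214 are known from smooth muscle cells and fibroblasts, miR-126 from capillary and vessel endothelium, and miR-1 and miR-133a are best known from heart and skeletal muscle.

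Mature sequences from RefSeq (GRCh38.p14) were matched for 15 of the 18 names. Those shown here are the arms that carried the counts and the principal partner arms that did not, 5′ to 3′, with the seed in capitals:
miR-143-3p: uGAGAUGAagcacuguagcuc
miR-145-5p: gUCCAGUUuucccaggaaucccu
miR-199a-3p: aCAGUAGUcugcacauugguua
miR-199b-3p: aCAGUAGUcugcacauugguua
miR-214-3p: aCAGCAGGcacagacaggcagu
miR-126-3p: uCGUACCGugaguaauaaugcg
miR-126-5p: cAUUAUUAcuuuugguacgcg
miR-1-3p: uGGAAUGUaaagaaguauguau
miR-133a-3p: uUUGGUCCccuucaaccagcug
The strands are 21 to 23 bases long. The letters of miR-199b-3p are identical to those of miR-199a-3p, and the count table held both names in 1 joined entry, so its counts cannot be divided between their hairpins on chromosomes 1, 19 and 9. No other seed was shared within the matched members, which carried 14 distinct seeds. Of 8 further human mature miRNAs with the seed of a member, all 8 were in the table and 2 had counts. These were miR-3129-5p, with the seed of miR-199a-3p, at 14 counts with manganese and 10 in the control, and miR-3619-5p, with the seed of miR-214-3p, at 0 counts with manganese and 5 in the control.

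Counts were found for 8 of the 17 entries, and the other 9 were listed at 0 in both libraries. The manganese library held 1091070 counts in all and the control library 1064179. The members together took 553 counts with manganese and 95 in the control, a share of 0.0507% and 0.00893% of each library. The summed fold was 5.91 (95% interval 4.74 to 7.42). A fold is the ratio of counts scaled by the TMM method, manganese over control, and its interval is the exact conditional binomial interval of the 2 counts, which covers counting error only. Without miR-143-3p the summed fold was 2.93 (2.21 to 3.91). In bulk libraries, fewer cells of a type and less RNA per cell cannot be told apart.

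At the depth of these libraries 5 entries had at least 20 counts over both libraries and were called measured. All 5 were at least 2-fold higher with manganese with an interval above 1-fold, and 0 of 5 were lower. Over all 403 measured entries, 12.9% were higher by that rule and 6.45% lower. The median log2 fold of the 5 was 1.62, against −0.08 for all measured entries. In the control library alone 2 of the 5 had 20 counts, miR-143-3p and miR-199a-3p/miR-199b-3p, and 4 had at least 10. The other 3 reached the minimum through the manganese library, where they are high, so the 5 of 5 is a description and not support. Of the members, 2 had at least 100 counts, both through their manganese counts, and both were higher (8.06% of all entries at that minimum were). With the whole interval above 2-fold as the rule, 2 of the 5 passed, miR-143-3p and miR-483-5p (6.45% of all measured entries did). These counts carry the same limit and nothing is read from them.

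**Figure D1:**
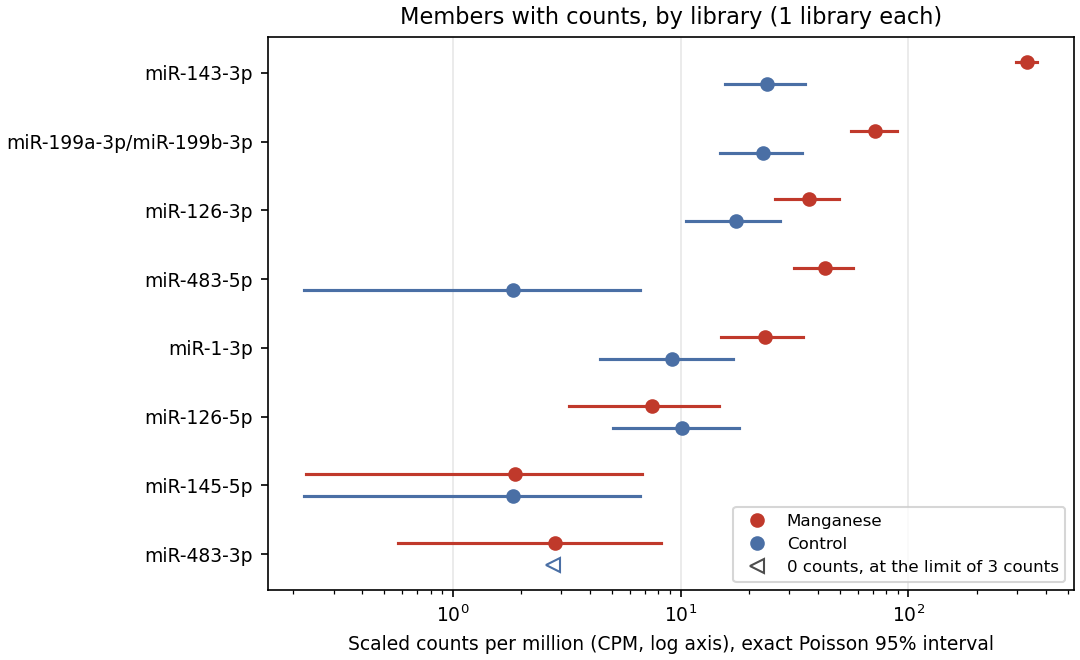
Level of each member entry with counts, in CPM, scaled counts over 1000000 (log axis), in the manganese library (upper point of each row) and the control library (lower point), with exact Poisson 95% intervals. miR-143-3p stands at 331 CPM with manganese and 24.0 CPM in the control, and miR-145-5p at 1.87 CPM and 1.84 CPM. The intervals cover counting error only.

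Of the mesenchymal group, miR-143-3p, which is abundant in smooth muscle, showed the widest gap in counts. It had 354 counts with manganese and 26 in the control, or, in scaled counts over 1000000 (CPM), 331 CPM (297 to 367) and 24.0 CPM (15.6 to 35.1). The fold was 13.8 (9.27 to 21.4). Ranked by count, it was entry 85 of the manganese library and entry 278 of the control library. It made up 64.0% (59.9 to 68.0) of all member counts with manganese and 27.4% (18.7 to 37.5) in the control. The exact Clopper-Pearson intervals of these shares do not overlap. Its hairpin MIR143 lies at chr5:149428918-149429023 of GRCh38, on the plus strand, within an exon of CARMN, a long non-coding RNA of cardiac and smooth muscle cells.

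The partner miR-145-5p, which drives the contractile state of smooth muscle, had 2 counts in each library, and miR-145-3p had 0 in both. Its hairpin MIR145 lies 1622 bases downstream of MIR143, at chr5:149430646-149430733 on the same strand, in an intron of CARMN in GENCODE 29. The hairpins are shown because the same transcript is the source of both, with the annotated arms in capitals:
MIR143: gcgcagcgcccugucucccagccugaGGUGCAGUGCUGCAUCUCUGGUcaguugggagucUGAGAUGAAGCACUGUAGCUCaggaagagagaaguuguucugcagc
MIR145: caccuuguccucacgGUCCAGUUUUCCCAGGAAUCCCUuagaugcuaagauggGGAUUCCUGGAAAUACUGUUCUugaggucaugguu
Counts of miR-145 were 0.562% (0.0681 to 2.01) of the counts of the pair with manganese and 7.14% (0.877 to 23.5) in the control. There were 177 miR-143 counts for each miR-145 count with manganese and 13 in the control. The ratio of the folds, miR-143 over miR-145, was 13.6, with an exact conditional interval of 0.936 to 192 that includes 1. With 4 counts of miR-145 in all, a difference between the partners' folds was not detectable at this depth.

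Fibroblasts are rich in miR-199a-3p and its copy miR-199b-3p, whose joined entry had 76 counts with manganese and 25 in the control. This is 71.0 CPM (56.0 to 88.9) and 23.0 CPM (14.9 to 34.0), a fold of 3.08 (1.94 to 5.06). The hairpins that could supply it number 3. MIR199A2 at chr1:172144535-172144644 overlaps DNM3OS, an antisense RNA within DNM3. MIR199A1 at chr19:10817426-10817496 and MIR199B at chr9:128244721-128244830 lie antisense in introns of DNM2 and DNM1.

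The partner miR-214 was listed at 0 in both arms and both libraries. Its hairpin MIR214, at chr1:172138798-172138907 in an exon of DNM3OS, lies 5627 bases from MIR199A2. Set against the 76 and 25 counts of the miR-199a-3p/miR-199b-3p entry, miR-214 had a share of 0. The interval of that share reached 4.74% of the pair with manganese and 13.7% in the control. MIR3120, which overlaps MIR214 over 81 bases on the opposite strand, had 0 counts in both libraries too.

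**Figure D2:**
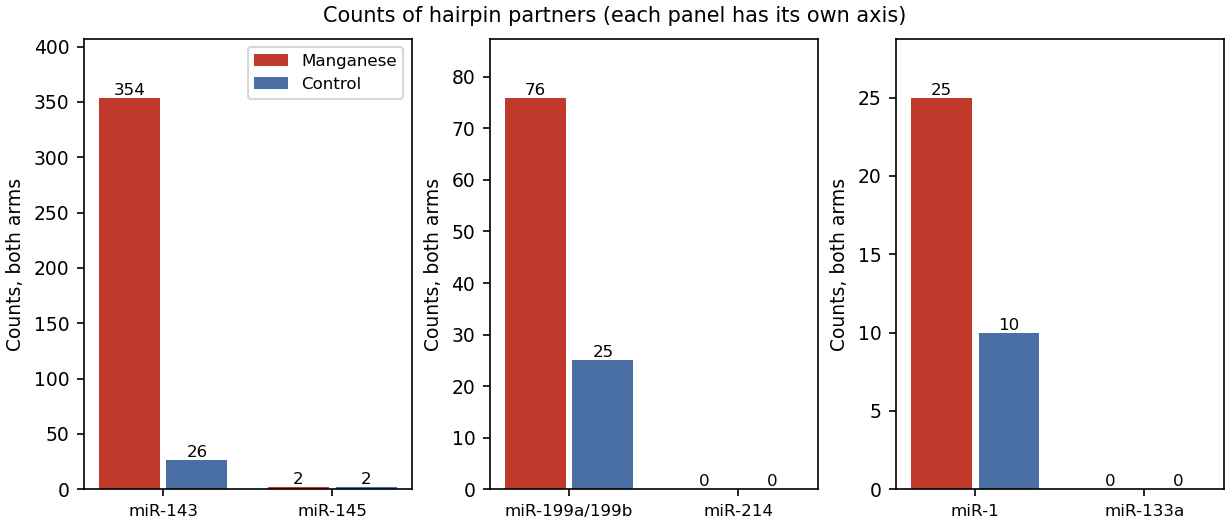
Counts of both arms of hairpin partners in the manganese library (left bar of each pair) and the control library (right bar), on axes that start at 0 and differ between panels. In each panel the first partner has more counts with manganese, at 354, 76 and 25, while miR-145 has 2 counts in each library and miR-214 and miR-133a have 0.

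The endothelial hairpin miR-126, which supports vessel integrity and angiogenic signalling, was the only one with both arms counted in both libraries. Its hairpin MIR126 lies at chr9:136670602-136670686 in an intron of EGFL7, an endothelial secreted factor, and is shown with both arms in capitals:
MIR126: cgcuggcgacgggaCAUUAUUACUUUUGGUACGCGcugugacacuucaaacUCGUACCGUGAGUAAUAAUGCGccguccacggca
The arm miR-126-3p had 39 counts with manganese and 19 in the control, or 36.5 CPM (25.9 to 49.8) and 17.5 CPM (10.5 to 27.3), a fold of 2.08 (1.17 to 3.82). For miR-126-5p the counts were 8 and 11, short of the 20 counts set for a measured entry by 1, with a fold of 0.738 (0.258 to 2.01). The 2 arms summed gave 47 and 30 counts and a fold of 1.59 (0.984 to 2.60), which did not pass the rule.

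The 5p arm made up 17.0% (7.65 to 30.8) of miR-126 counts with manganese and 36.7% (19.9 to 56.1) in the control. The ratio of the arms' folds, 5p over 3p, was 0.354 (0.106 to 1.17), an interval that includes 1. Of 88 stems in the table with at least 19 counts in their rarer arm, 35 (39.8%) had an interval for this ratio that excluded 1. The arm miR-126-5p is at the minimum of 19 counts, so its interval is among the wider ones and the 2 are not compared.

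In the other members counted, a single arm carried nearly all counts. For miR-143 the 5p arm had 0 counts beside 354 and 26 of the 3p arm, with an interval that reached 1.04% with manganese and 13.2% in the control. The 5p arms of miR-199a and miR-199b had 0 beside 76 and 25 counts of the 3p arm, with an interval that reached 4.74% and 13.7%. The other arm was at 0 in 7.14% of 84 stems with at least 380 counts in the more abundant arm, the total of miR-143-3p. It was at 0 in 14.4% of 125 stems with at least 101 counts, the total of miR-199a-3p/miR-199b-3p, and in 21.5% of 181 stems with at least 35, the total of miR-1-3p.

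For muscle, miR-1-3p, which promotes differentiation of heart and skeletal muscle, had 25 counts with manganese and 10 in the control. This is 23.4 CPM (15.1 to 34.5) and 9.21 CPM (4.42 to 16.9), and the fold was 2.54 (1.18 to 5.92). Its arm miR-1-5p was at 0 in both. The partner miR-133a, which acts with miR-1 in muscle, was at 0 in both arms and libraries. The interval of its share of the pair reached 13.7% with manganese and 30.8% in the control. Each of the 2 loci for this pair holds both hairpins. MIR1-2 at chr18:21829004-21829088 lies 3218 bases from MIR133A1 at chr18:21825698-21825785, both in exons of MIR133A1HG and antisense to MIB1. MIR1-1 at chr20:62554306-62554376 lies 10535 bases from MIR133A2 at chr20:62564912-62565013, both within MIR1-1HG. The other muscle miRNAs listed for comparison, miR-133b, miR-206, miR-208a, miR-208b, miR-499a and miR-499b, had 0 counts in all of their 10 entries. Of the muscle stems named here, which are not all miRNAs found in muscle, miR-1-3p was therefore the single arm seen. The listed miR-206, which has the seed of miR-1-3p, was not seen.

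The imprinted miR-483-5p, which lies with its host IGF2 in a region active in fetal growth, had 46 counts with manganese and 2 in the control. This is 43.0 CPM (31.5 to 57.4) and 1.84 CPM (0.223 to 6.66), a fold of 23.3 (6.10 to 198). The control value is within the floor of 3 counts, equal to 2.76 CPM there, so the size of the fold is poorly bounded from above. The arm miR-483-3p had 3 counts with manganese and 0 in the control, and no fold is given. The hairpin MIR483 is at chr11:2134134-2134209 in an intron of IGF2. The neighbouring imprinted hairpin MIR675, in an exon of H19 at a distance of 137302 bases, had 0 counts in both libraries.

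**Figure D3:**
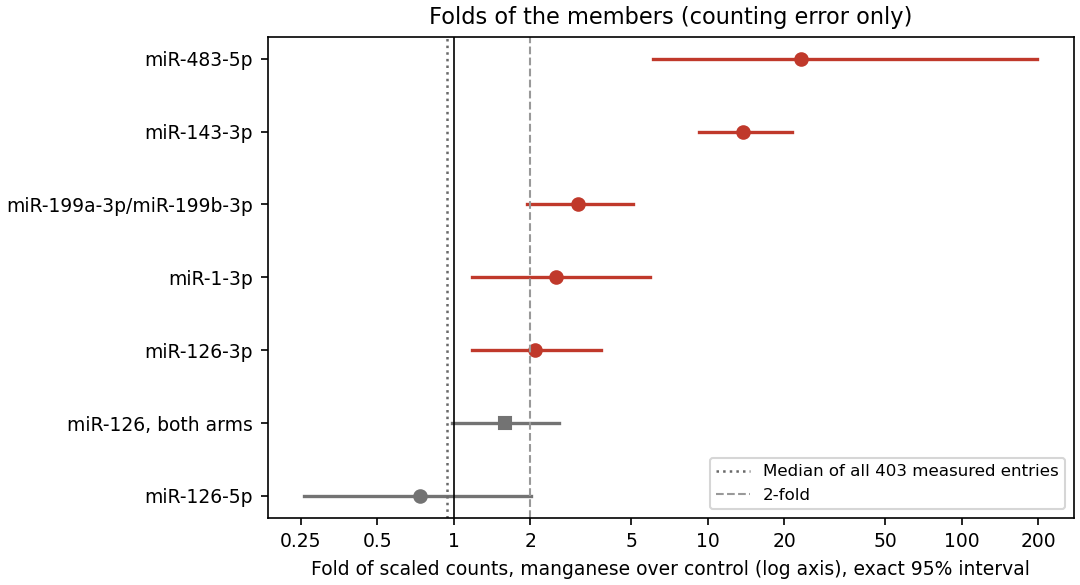
Fold of scaled counts, manganese over control (log axis), for the members where a fold could be given and for both arms of miR-126 summed (square), with exact 95% intervals; grey marks intervals that include 1. The folds run from 23.3 for miR-483-5p to 0.738 for miR-126-5p, and the dotted line is the median of all 403 measured entries.

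Among the members the folds were set against each other as ratios, which do not depend on library scaling. For the 2 members with 20 counts in the control library alone, the fold of miR-143-3p was 4.48 times that of miR-199a-3p/miR-199b-3p (2.33 to 8.53, and 1.79 to 11.1 at the 99.5% that covers all 10 pairs jointly). The members were chosen with earlier results of these data known, and the joint interval does not cover that choice. The other 9 pairs include a member that was measured only through its manganese counts, and their ratios are given as a description. The fold of miR-143-3p was 5.45 times that of miR-1-3p (2.09 to 13.3) and 6.63 times that of miR-126-3p (3.15 to 13.7). Between miR-483-5p and miR-143-3p the ratio was 1.69 (0.400 to 15.1). Among miR-199a-3p/miR-199b-3p, miR-1-3p and miR-126-3p the 3 ratios lay between 1.22 and 1.48, each with an interval that included 1, and the widest reached 0.448 to 3.44.

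Measured markers of blood cells and of the primate-specific 19q13 cluster of placenta were also higher with manganese, and their part in the result was not tested. By the same rule 12.9% of all 403 measured entries were higher. In the blood cell list all 5 measured entries of 11 were higher with manganese, with summed levels of 165016 CPM with manganese and 8901 CPM in the control, and 0 of its 6 stems were at 0. Nearly all of that sum was miR-486-5p, at 163414 CPM with manganese and 8842 CPM in the control. The next 3 by level were miR-451a, with 1564 and 50 counts, miR-223-3p, with 47 and 4, and miR-142-5p, with 42 and 7. In the 19q13 list all 8 measured entries of 51 were higher, with 777 CPM and 65.4 CPM, and 11 of 37 stems were at 0: miR-520e, miR-520f, miR-518f, miR-520b, miR-518b, miR-526a, miR-520c, miR-521, miR-520g, miR-518d and miR-520h. Its highest entries were miR-1323, with 248 counts with manganese and 27 in the control, the joined entry that holds miR-522-5p, with 119 and 6, miR-512-3p, with 92 and 14, and miR-516b-5p, with 78 and 7. In the control library alone, only miR-486-5p, miR-451a and miR-1323 of these 2 lists reached the minimum for a measured entry. The remaining measured entries of both lists reached it through the manganese library, where they are high. That all 5 and all 8 were higher is therefore a description and not support. The 3 measured entries nearest in log2 fold to miR-143-3p, over these 2 libraries, all belonged to those lists. They were miR-526b-5p (difference of −0.03), miR-223-3p (−0.21) and miR-516b-5p (−0.29). Their fold intervals, in that order, were 4.31 to 68.4, 4.36 to 45.6 and 5.23 to 29.04. Each is wide and includes the fold of 13.8 of miR-143-3p, so nearness is not resolved by these counts. The lists were also chosen with earlier results of these data known, and nothing is read from the nearness.

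**Figure D4:**
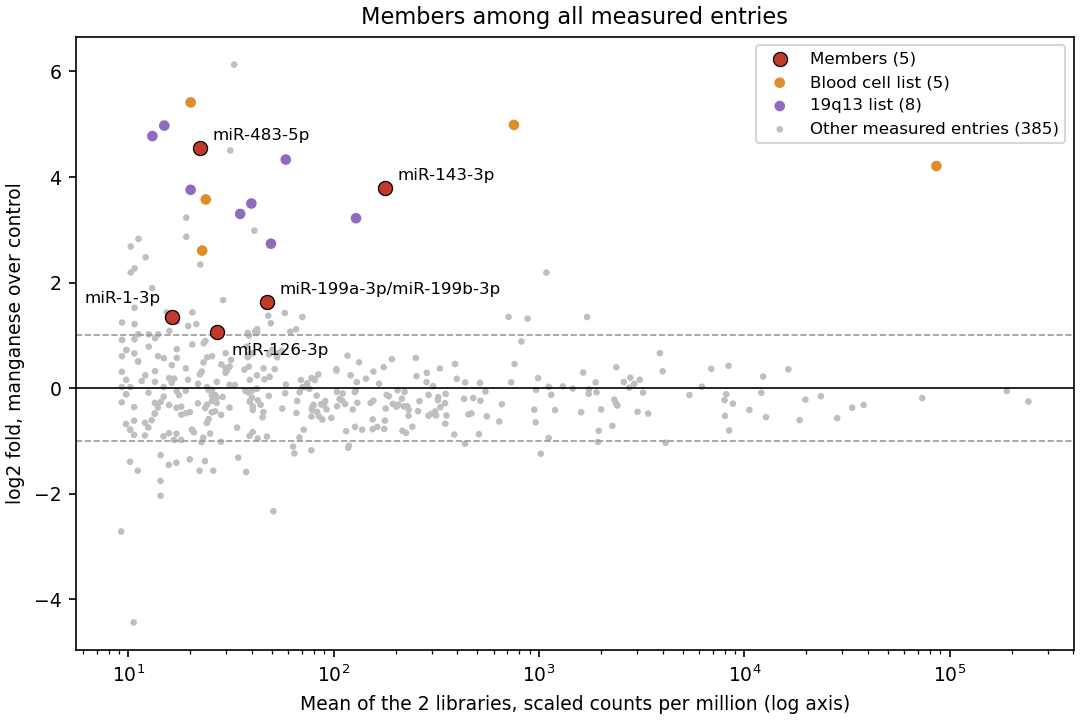
Log2 fold, manganese over control, against the mean level of the 2 libraries (log axis) for all 403 measured entries, with the 5 members, the 5 blood cell entries and the 8 entries of the 19q13 list marked. miR-143-3p and miR-483-5p lie at log2 folds of 3.79 and 4.54 among the blood cell and 19q13 entries, and miR-199a-3p/miR-199b-3p, miR-1-3p and miR-126-3p lie lower, at 1.62, 1.34 and 1.06.

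The label of bronchial epithelium was set against 7 epithelial stems. Counts were found for 6, and miR-203a of stratified epithelium was at 0. Several were barely counted and not measured: miR-205-5p had 11 counts with manganese and 3 in the control, miR-200c-3p 7 and 3, and miR-141-3p 2 and 0. The arm miR-200a-5p, also not measured, had 3 and 6. The whole epithelial list, measured entries included, summed to 212 CPM with manganese and 109 CPM in the control. Of 3 measured entries 2 were higher and 0 lower, against 12.9% and 6.45% of all 403 measured entries. The 2 were miR-200b-3p at 74 and 32 counts (2.35-fold, 1.53 to 3.67) and miR-429 at 60 and 29 (2.10-fold, 1.33 to 3.39). The third, miR-200a-3p, had 70 and 45 (1.58-fold, 1.07 to 2.35).

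Other miRNAs known from mesenchymal cells, which are also found in many other cell types, went in both directions. Of 9 measured entries 2 were higher and 2 lower, against 12.9% and 6.45% of all 403 measured entries. Their median log2 fold was −0.03. The most abundant was miR-100-5p, with 2890 counts with manganese and 2231 in the control (1.31-fold, 1.24 to 1.39). Next came miR-22-3p with 1518 and 2697 (a fold of 0.571, 0.536 to 0.608), miR-10b-5p with 2631 and 1049 (2.54-fold, 2.37 to 2.74) and miR-152-3p with 1022 and 1061 (0.977, 0.896 to 1.07). Of these 4, miR-10b-5p passed the rule. The other 3 that passed, named after their values were seen, were miR-140-3p with 1091 and 434 counts (2.55-fold, 2.28 to 2.86), miR-218-5p with 81 and 175 (0.470, 0.356 to 0.614) and miR-140-5p with 41 and 98 (0.424, 0.287 to 0.617).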

How the data were processed

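The authors deposited whole-number counts per mature miRNA entry, with 1 column per library. That these are raw counts was read from the values and from the table's own title. Per the submitters' processing notes the genome build was hg38; the labels name no aligner, counter or filter. A deposited table of differences equalled manganese minus control in all 2904 entries and was not used. Columns were assigned by the names in the sample descriptions.

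CPM values (scaled counts over 1000000) and folds were computed from the deposited counts with TMM factors (0.981 for manganese, 1.02 for control) from edgeR 4.0.16 in R 4.3.3, and intervals with scipy 1.17.1 in Python 3.11.15. Entries were called measured from 20 counts upward, summed over the 2 libraries. For levels and folds a count of 0 was read against a floor of 3 counts, and no fold was given where both counts were at or under it. Shares have exact Clopper-Pearson 95% intervals, also where a count was 0. An entry was called higher or lower where its fold was at least 2 in that direction and its 95% interval excluded 1, with no test of the conditions. Intervals and floors cover counting error only, since the labels name no molecular identifiers, and variation between cultures is not included. Hairpin positions came from GENCODE 29 (GRCh38) and equalled those of RefSeq in 13 of 13 hairpins compared. Every entry of the 9 stems was named or counted, with the up to 4 most abundant measured entries of each other list and the 3 entries nearest to miR-143-3p. The members and lists were chosen with earlier results of these data known. Alternatives were other scalings (total counts, DESeq2 1.42.0 size factors, totals without the 5 most abundant entries), count filters, rules and a pseudocount of 1.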

Additional observations from a re-analysis of the deposited data

How the results depend on the processing

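All 45 alternative values of the 10 member and hairpin folds kept their direction and their side of the 2-fold rule, under 4 other scalings and, for single entries, a pseudocount of 1. Not all are distinct: the hairpin folds of miR-143, miR-199a/miR-199b and miR-1 repeat those of their counted arm, since the other arm was at 0. Each scaling also changes all folds by the same factor, so the 45 values are not 45 separate checks. With a pseudocount of 1 the fold of miR-483-5p was 15.9 in place of 23.3. The scaling by totals without the blood cell and 19q13 entries was chosen after seeing the data. It moved the median over all measured entries by 0.19 on the log2 scale, as did leaving out the 5 most abundant entries, and neither changed a member's call. The fold of miR-126-3p came closest to the rule, just above 2-fold when scaled by total counts. The count of higher members was 2 in place of 5 with at least 100 counts, since only 2 members then enter, and their median log2 fold was 2.71. It was also 2 with the whole interval above 2-fold. The count of lower members was 0 under each alternative run. No paired analysis was possible because each group has 1 library. Depth limits miR-145-5p, miR-483-3p and the 9 entries at 0.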

Other observations

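A p- prefix, which the labels do not explain, stands before the name of 339 entries of the table. In 5 of these entries the rest of the name is that of a member stem, and these were not counted as members. The shared name does not show that they are forms of the members, and a relation was not tested. Of these 5, p-hsa-miR-1 had 11 counts with manganese and 10 in the control (1.12-fold, 0.430 to 2.93). The entries p-hsa-miR-214, p-hsa-miR-126, p-hsa-miR-145 and p-hsa-miR-143 were at 0 in both libraries. The member miR-1-3p had 25 counts with manganese and 10 in the control, and p-hsa-miR-1 is not read as a form of it.

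Member strands with counts had a median GC content of 40.9% (27.3 to 52.2, 7 names), and strands at 0 in both libraries had a median of 53.4% (31.8 to 59.1, 8 names). The 4 measured members with a RefSeq sequence had a median of 43.2%, against 47.6% for 344 of the 403 measured entries. Among the 7 names, miR-199a-3p and miR-199b-3p are 1 joined entry with the same letters, and their 40.9% is the median. The counted strands miR-483-5p and miR-483-3p and the strand miR-199b-5p, at 0, had no RefSeq sequence and are left out. These are descriptions of the strands and no test was made.

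The arms of miR-140, a stem of the other mesenchymal miRNAs, passed the rule in opposite directions, with folds of 2.55 for miR-140-3p and 0.424 for miR-140-5p. The stem was named after its values were seen. Arm ratios that differed between the libraries were common, with an interval that excluded 1 in 35 of 88 stems (39.8%).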
